A study of Mus musculus with 57 samples.

Results

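Muscle calcium handling was examined through 10 named genes of 26089 curated RefSeq genes on chromosomes 1 to 19 and X. These are the calcium release channels Ryr1, Ryr2 and Ryr3, the calcium pumps Atp2a1 and Atp2a2, the calcium storage proteins Casq1 and Casq2, the cytosolic buffer Pvalb, the pump inhibitor Sln and the junctional protein Jph1. They were taken by name for their function, with earlier results of these data known. The chromatin of gastrocnemius (a calf muscle of mostly fast fibres) was compared with that of brain cortex in PSAPP mice, a transgenic mouse model of Alzheimer's disease (AD), at 13 months of age. All mice had been given LabDiet 5001 chow, and a fixed ration of 11.2 kcal a day of a changed AIN-93 diet, eaten in single cages, followed from 6 months on. Tissue was snap frozen, every mouse carried the PSAPP strain, and no animals without the transgenes are among the 57 libraries, so the values describe tissue differences within this model. For each of 3 histone marks there were 9 cortex and 10 gastrocnemius libraries from 10 mice, of which 9 gave both tissues.

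In a muscle fibre, an action potential opens ryanodine receptors in the sarcoplasmic reticulum (SR), the calcium released starts contraction, and pumps of the SERCA family return it to the SR, where calsequestrin binds it. Skeletal muscle fibres, fast or slow, use Ryr1. Fast fibres use Atp2a1 and Casq1 and hold much parvalbumin, and slow and cardiac fibres use Atp2a2 and Casq2. Casq1 is not confined to fast fibres. Ryr2, Ryr3 and Atp2a2 are also used by neurons, while parvalbumin marks a class of inhibitory cortical neurons. H3K4me3 marks active or poised promoters, H3K27ac marks active promoters and enhancers, and H3K27me3 is laid down by the Polycomb system at repressed genes.

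No member had another gene's transcription starting site (TSS) within 1 kb (mm10 coordinates from RefSeq). Wide H3K27ac peaks still took in a neighbour's TSS at Atp2a1, Casq1 and Pvalb. Ryr1 lies on chr7:29003340-29125151, Ryr2 on chr13:11553103-12106945, Ryr3 on chr2:112631380-113217083, Atp2a1 on chr7:126445860-126463073 and Atp2a2 on chr5:122453513-122502225. Casq1 lies on chr1:172209894-172219895, Casq2 on chr3:102086415-102146514, Pvalb on chr15:78191112-78206400, Sln on chr9:53850251-53853849 and Jph1 on chr1:16994938-17097889. Casq2 and Sln are on the plus strand and the other 8 on the minus strand. Their lengths run from 3.6 kb (Sln) to 586 kb (Ryr3). Pvalb alone has more than 1 curated start, the second 2.163 kb downstream of the first.

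The 250 bases before the start of 3 fast fibre genes, of the second Pvalb start and of Ryr2 are shown, 5′ to 3′ on the gene's strand, because these starts carry the contrast between fast fibre and neuronal genes and differ in CpG content (RefSeq, GRCm38.p6). Capitals mark CpG dinucleotides.
Atp2a1, chr7:126463074-126463323, minus strand: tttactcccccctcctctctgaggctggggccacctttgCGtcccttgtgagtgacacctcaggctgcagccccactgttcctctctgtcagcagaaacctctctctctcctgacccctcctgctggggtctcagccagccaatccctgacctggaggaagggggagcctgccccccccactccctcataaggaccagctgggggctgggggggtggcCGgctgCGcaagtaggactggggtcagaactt
Casq1, chr1:172219896-172220145, minus strand: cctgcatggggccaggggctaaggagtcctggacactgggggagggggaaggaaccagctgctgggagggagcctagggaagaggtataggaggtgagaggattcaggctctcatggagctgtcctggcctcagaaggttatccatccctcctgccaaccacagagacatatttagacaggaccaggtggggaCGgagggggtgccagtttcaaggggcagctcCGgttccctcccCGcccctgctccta
Pvalb, first start, chr15:78206401-78206650, minus strand: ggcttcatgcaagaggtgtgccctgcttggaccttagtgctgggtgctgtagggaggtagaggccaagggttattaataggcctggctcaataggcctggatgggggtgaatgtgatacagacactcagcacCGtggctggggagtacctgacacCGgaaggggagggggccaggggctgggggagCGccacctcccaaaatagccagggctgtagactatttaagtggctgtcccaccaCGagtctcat
Pvalb, second start, chr15:78204238-78204487, minus strand: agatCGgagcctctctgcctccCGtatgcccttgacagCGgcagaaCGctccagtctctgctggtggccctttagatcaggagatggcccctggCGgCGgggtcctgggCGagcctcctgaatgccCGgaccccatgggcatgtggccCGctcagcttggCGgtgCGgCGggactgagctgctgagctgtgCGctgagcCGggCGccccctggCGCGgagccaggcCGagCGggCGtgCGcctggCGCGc
Ryr2, chr13:12106946-12107195, minus strand: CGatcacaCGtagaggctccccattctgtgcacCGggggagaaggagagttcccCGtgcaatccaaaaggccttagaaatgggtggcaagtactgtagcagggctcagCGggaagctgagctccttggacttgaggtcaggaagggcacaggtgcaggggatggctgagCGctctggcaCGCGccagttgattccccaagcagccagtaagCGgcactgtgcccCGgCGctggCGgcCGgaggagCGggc

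The Atp2a1, Casq1 and first Pvalb promoters held 3, 3 and 4 CpGs, with observed to expected ratios of 0.119, 0.130 and 0.198 against a median of 0.374 over 32851 RefSeq promoters of the same length. The second Pvalb start had 23 CpGs and a ratio of 0.720, and Ryr2 had 14 and 0.574. Ryr1 (6 CpGs, ratio 0.323) and Casq2 (5 CpGs, ratio 0.484) lay between. CAGCTG, an E-box that reads the same on both strands, occurred 55 bases before the Atp2a1 start and 195 bases before the Casq1 start, and 13.0% of all promoters held it. The MEF2 motif, searched on both strands, occurred 180 bases before the first Pvalb start and 69 bases before the Casq2 start, against 2.92% of all promoters. TCAGGTT (3.49% of promoters) and TATAAA (12.4%), searched on both strands, had no match in the 7 windows that the table gives for 6 members. These matches are descriptions of the letters only.

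The values are reads in peaks that the authors called with epic2. Signal is given as RPM per kb, the reads of called peaks that fall within 1 kb of the TSS or in the gene body, scaled to the reads of the library in autosomal peaks (RPM, reads per M) and to each kb of window. A value of 0 means that no peak was called there, and the lowest densities of called peaks ran from 0.845 to 3.16 RPM per kb over the libraries. Reads in autosomal peaks ranged from 9.03 to 18.6 M (H3K4me3), 3.90 to 27 M (H3K27ac) and 2.99 to 18.2 M (H3K27me3). The 2 cortex and 4 gastrocnemius libraries of each mark whose deposited names carry a run number stood apart in depth for H3K27me3 in the gastrocnemius, where the 4 held 7.30 to 18.2 M reads and the other 6 gastrocnemius libraries 2.99 to 5.86 M, and for H3K4me3 in the cortex, where the 2 held 16.9 to 18.6 M and the other 7 held 9.32 to 13 M. For H3K27me3 in the cortex the 2 held 5.74 to 6.35 M and the other 7 held 3.90 to 5.57 M. For H3K27ac in the cortex the 2 held 3.90 and 19.2 M and the other 7 held 14.3 to 21.0 M. Tissue labels were checked against marker genes. H3K4me3 lay on 7 of 7 muscle fibre genes in every gastrocnemius library (summed level 53.4 to 77.9 RPM per kb) and on 1 of 7 in every cortex library (16.6 to 25.2), with Ckm, Tnnt3, Tnnc2, Myh1 and Myh4 at 0 there. It lay on 6 of 7 neuronal genes in every cortex library (60.1 to 87.7) and on 2 of 7 in every gastrocnemius library (4.03 to 10.5), with Snap25, Rbfox3, Camk2a and Gad1 at 0 there. The cardiac markers Myh6, Tnnt2 and Tnni3 had no H3K4me3 in any library. These are bulk tissues, so fewer cells of a type and less mark per cell cannot be told apart, and neither can tissue and any step done separately for the tissues.

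**Figure D1:**
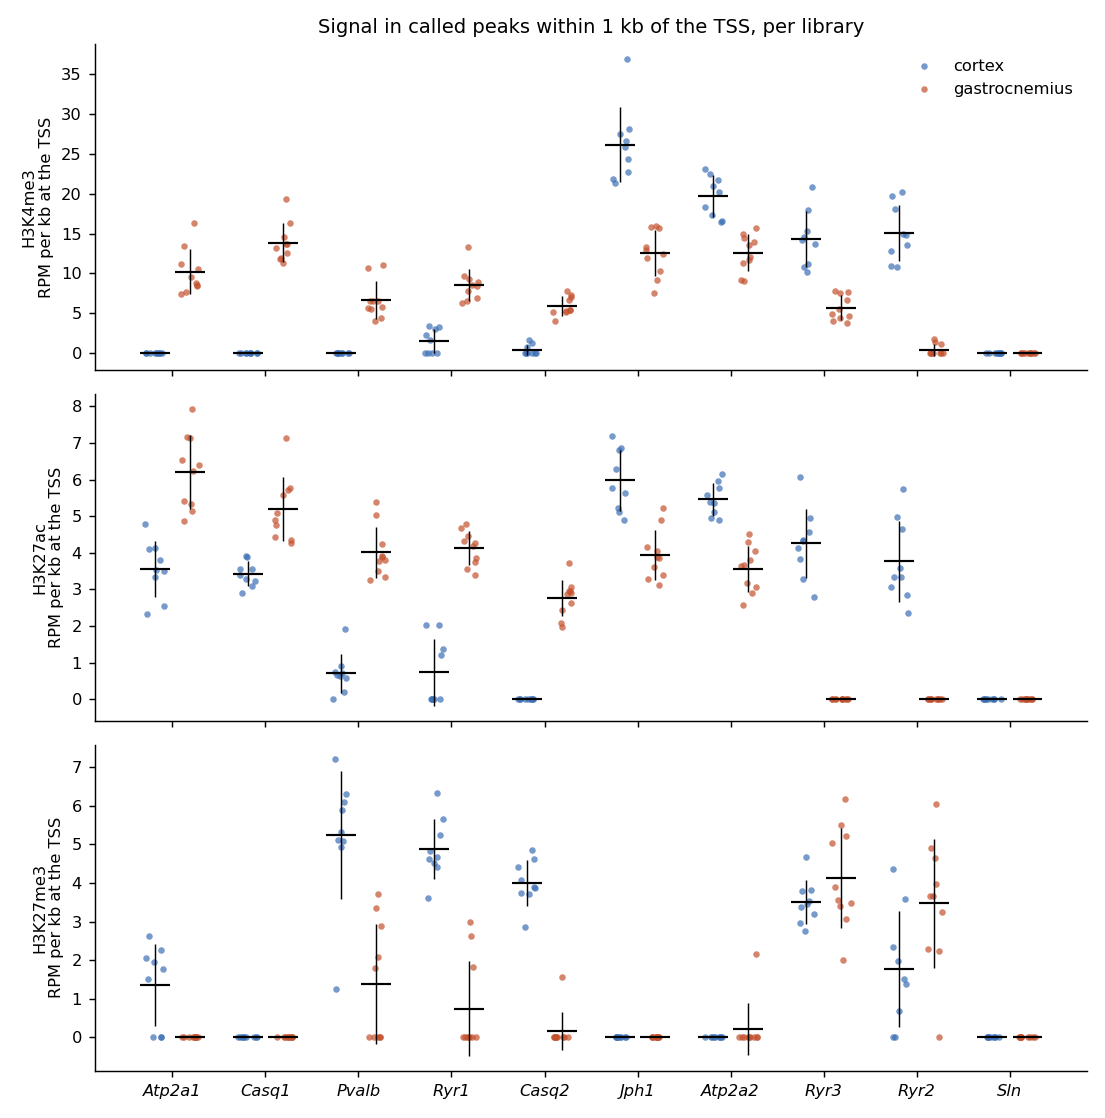
Signal of the 3 marks within 1 kb of the TSS of each member, in RPM per kb on a linear axis, with 1 point per library (cortex blue, gastrocnemius red) and the mean ± SD as black bars. Atp2a1, Casq1 and Pvalb carried H3K4me3 in 10 of 10 gastrocnemius libraries and 0 of 9 cortex libraries, and Ryr2 and Ryr3 carried H3K27ac in 9 of 9 cortex libraries and 0 of 10 gastrocnemius libraries.

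At the TSS, the fast fibre genes, Ryr1 and Casq2 were marked for activity in muscle, and the release channels of neurons in cortex. H3K4me3 was higher in the gastrocnemius at Ryr1, Atp2a1, Casq1, Casq2 and Pvalb and higher in the cortex at Ryr2, Ryr3, Atp2a2 and Jph1 (edgeR's quasi-likelihood test, FDR under 0.1), so that all 9 tested members were called, 5 and 4. Of all 16727 genes tested, 16% were called higher in the gastrocnemius and 59.1% in the cortex. H3K27ac gave the same directions, 5 and 4 of 9 tested members, against 12.8% and 49.8% of 18354 genes. H3K27me3 was tested at 6 members and was higher in the cortex at 4 (Ryr1, Atp2a1, Casq2 and Pvalb), against 19.9% of 9422 genes. No member had H3K27me3 called higher in the gastrocnemius by edgeR, against 23% of genes. The other 2 members, Ryr2 and Ryr3, had unadjusted p-values of 0.222 and 0.291, so 0 were under 0.05, and DESeq2 called 0 and limma 1 (Ryr2, FDR 0.0877). Sln was listed at 0 for all 3 marks at its TSS in every library.

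The all-gene median of the log2 fold change (gastrocnemius over cortex) at the TSS was -0.33 for H3K4me3, -0.31 for H3K27ac and -0.08 for H3K27me3 with this scaling. With DESeq2 size factors it was -0.01, -0.03 and 0.02, and the shares of genes called higher in gastrocnemius and in cortex became 29.6% and 29.4% for H3K4me3 and 26% and 30.4% for H3K27ac. All 18 member calls of these 2 activity marks kept their direction and call with TMM factors and with DESeq2 size factors. Of the 4 cortex calls of H3K27me3, 3 held with TMM factors, without Pvalb (edgeR, FDR 0.143), and 2 with DESeq2 size factors, without Ryr1 (edgeR, FDR 0.103) and Pvalb (edgeR, FDR 0.166), while Ryr3 was then called higher in the gastrocnemius (edgeR, FDR 0.0448). Among the calls of the 2 activity marks, the smallest differences relative to the all-gene median were those of Atp2a2 and Jph1. They were -0.31 for H3K4me3 and -0.30 for H3K27ac at Atp2a2, and -0.28 for H3K27ac at Jph1.

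The calcium release channels divided by tissue. Ryr1, the release channel of skeletal muscle, had 6.25 to 13.3 RPM per kb of H3K4me3 in the 10 gastrocnemius libraries (median 8.51) and 0 to 3.38 in the 9 cortex libraries (median 1.61, a peak in 5). Every gastrocnemius library lay above every cortex library. The means were 8.58 ± 2.03 (SD, n = 10) and 1.52 ± 1.54 (SD, n = 9), a log2 fold change of 2.5 (edgeR, FDR 0.00534). H3K27ac at Ryr1 was 3.41 to 4.80 in the gastrocnemius (median 4.23) and 0 to 2.04 in the cortex (median 0, a peak in 4), again without overlap (log2 fold change 2.41, edgeR, FDR 0.00658). H3K27me3 ran the other way. It was called in 9 of 9 cortex libraries (3.62 to 6.32, median 4.66) and in 3 of 10 gastrocnemius libraries (0 to 3.0, median 0), and the tissues did not overlap (log2 fold change -2.65, edgeR, FDR 0.0400). The 3 gastrocnemius libraries with a Ryr1 H3K27me3 peak were among the 4 with a run number, and 0 of the other 6 had one. The call was lost with DESeq2 size factors (log2 fold change -2.18, edgeR, FDR 0.103) and within the libraries with a run number (log2 fold change -1.39, edgeR, FDR 0.481). The part of read depth in this was not tested.

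Ryr2, the release channel of heart and of many neurons, showed the reverse. Its H3K4me3 was 10.8 to 20.2 RPM per kb in the cortex (median 14.8) and 0 to 1.79 in the gastrocnemius (median 0, a peak in 3 of 10), with means of 15.1 ± 3.53 (SD, n = 9) and 0.438 ± 0.722 (SD, n = 10). The tissues did not overlap (log2 fold change -5.03, edgeR, FDR 7.44e-06, and -5.62 without gastrocnemius replicate 2). Its H3K27ac was 2.35 to 5.74 in the cortex (median 3.34) and listed at 0 in all 10 gastrocnemius libraries (edgeR, FDR 1.14e-09). H3K27me3 was called at the Ryr2 TSS in 9 of 10 gastrocnemius libraries (0 to 6.06, median 3.66) and in 7 of 9 cortex libraries (0 to 4.37, median 1.52), and the ranges overlapped. That difference did not pass the test (log2 fold change 0.99, edgeR, FDR 0.355, unadjusted p 0.222). In the gene body it did, with H3K27me3 between 0.157 and 0.542 RPM per kb in the gastrocnemius (median 0.336) and between 0 and 0.0431 in the cortex (median 0.0148; log2 fold change 4.27, edgeR, FDR 0.000169). The gastrocnemius H3K27me3 peaks at Ryr2 were 1.8 to 28.6 kb wide (median 12.4) and the cortex ones 1.4 to 6.0 kb (median 3.2).

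Ryr3, a release channel found at low levels in brain and some muscles, kept H3K4me3 in both tissues. It was 10.1 to 20.8 RPM per kb in the cortex (median 14.2) and 3.77 to 7.76 in the gastrocnemius (median 5.20), without overlap (log2 fold change -1.33, or -1.0 relative to the all-gene median; edgeR, FDR 1.08e-07). The H3K4me3 peak was also narrow in the gastrocnemius, at 1.2 to 2.0 kb against 2.6 to 5.8 kb in the cortex. Its gastrocnemius to cortex ratio of median widths was 0.296, where the median over 13837 genes with the mark in both tissues was 1.31 and 0.585% of genes had a smaller ratio. H3K27ac at Ryr3 was 2.80 to 6.07 in the cortex (median 4.32) and listed at 0 in all 10 gastrocnemius libraries (edgeR, FDR 1.11e-10).

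H3K27me3 covered the Ryr3 TSS in every library of both tissues, at 2.76 to 4.68 in the cortex (median 3.46) and 2.0 to 6.16 in the gastrocnemius (median 3.73). The ranges overlapped and the difference did not pass the test (log2 fold change 0.22, edgeR, FDR 0.430, unadjusted p 0.291). With DESeq2 size factors it did (log2 fold change 0.28, edgeR, FDR 0.0448), and within the libraries without a run number as well (log2 fold change 0.48, edgeR, FDR 0.0612). It was -0.26 within those with a run number (edgeR, FDR 0.618). H3K4me3 and H3K27me3 thus lay at the Ryr3 TSS together in 10 of 10 gastrocnemius and 9 of 9 cortex mice. Over all 26089 genes, 6.39% had both marks in every gastrocnemius mouse and 6.67% in every cortex mouse. In the cortex Ryr3 also had H3K27ac in 9 of 9 mice, and in the gastrocnemius in 0 of 10. Whether the marks sit on the same chromatin or in different cells cannot be told apart in bulk tissue.

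Of the calcium pumps, 1 was marked with H3K4me3 in muscle alone and the other in both tissues. Atp2a1, the SERCA1 pump of fast fibres, had 7.46 to 16.3 RPM per kb of H3K4me3 in the gastrocnemius (median 9.20) and none called in the 9 cortex libraries (edgeR, FDR 6.24e-14). Its H3K27ac was present in both tissues, at 4.88 to 7.92 in the gastrocnemius (median 6.32) and 2.32 to 4.78 in the cortex (median 3.52). These densities did not overlap (means 6.22 ± 1.01, SD, n = 10, and 3.56 ± 0.770, SD, n = 9; log2 fold change 0.78, edgeR, FDR 2.49e-05). As whole peaks, which took in the neighbour Sh2b1 in most libraries, they held 227 to 422 RPM in the gastrocnemius and 12.8 to 73.7 RPM in the cortex (log2 fold change 2.42, edgeR, FDR 2.45e-07). The 12.8 RPM came from a peak of 50 reads in the shallowest cortex library (3.90 M). H3K27me3 was called in 6 of 9 cortex libraries (0 to 2.63, median 1.77) and in 0 of 10 gastrocnemius libraries (edgeR, FDR 0.00311).

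Among the members, Atp2a1 had the widest H3K4me3 peaks by median in the gastrocnemius. They were 18.6 to 25.4 kb wide, wider than the median peak of 99.5% of the 14539 genes marked in the gastrocnemius, and covered 79.4% to 100% of the gene body. The H3K27ac peaks were 34.4 to 79.2 kb wide, covered 100% of the gene body in every gastrocnemius library and took in the TSS of the neighbour Sh2b1, 12.057 kb upstream, in 10 of 10. In the cortex the H3K27ac peak was 5.0 to 20.6 kb wide and took in the Sh2b1 TSS in 7 of 9 libraries. It reached 1.33 to 17.3 kb upstream of Atp2a1 and 1.27 to 3.67 kb downstream, with medians of 13.9 and 2.67 kb, so that it lay mainly on the side of Sh2b1. How much of the cortex signal belongs to either gene cannot be told apart.

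Atp2a2, the SERCA2 pump of slow and cardiac muscle and of most other cells, was marked for activity in every library of both tissues. Its H3K4me3 was 16.4 to 23.1 RPM per kb in the cortex (median 20.3) and 9.10 to 15.7 in the gastrocnemius (median 12.8), without overlap (log2 fold change -0.64, edgeR, FDR 2.43e-05). Its H3K27ac was 4.89 to 6.16 in the cortex (median 5.39) and 2.57 to 4.51 in the gastrocnemius (median 3.66; log2 fold change -0.61, edgeR, FDR 2.78e-05). Both differences were under 2-fold. The peaks had the same median width in both tissues for H3K4me3 (7.8 kb) and nearly so for H3K27ac (11.8 kb in the cortex and 11.2 kb in the gastrocnemius). H3K27me3 was called in 1 gastrocnemius library and in no cortex library.

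The calsequestrins, which bind calcium within the SR, were both marked in muscle. Casq1, the main form of fast fibres, had H3K4me3 in 10 of 10 gastrocnemius libraries (11.3 to 19.3 RPM per kb, median 13.4) and in 0 of 9 cortex libraries (edgeR, FDR 1.37e-15). H3K27ac at its TSS was called in all 19 libraries, at 4.27 to 7.12 in the gastrocnemius (median 4.99) and 2.89 to 3.91 in the cortex (median 3.39; log2 fold change 0.61, edgeR, FDR 2.64e-05). Casq1 in the cortex therefore had H3K27ac without H3K4me3 at its TSS, as Atp2a1 did. The cortex H3K27ac peaks at Casq1 were 4.6 to 10.4 kb wide and the gastrocnemius ones 17.2 to 94.2 kb, a ratio of median widths of 6.71 against a median of 1.36 over 13274 genes. As whole peaks they held 18.1 to 35.2 RPM in the cortex and 123 to 418 RPM in the gastrocnemius (log2 fold change 3.25, edgeR, FDR 7.93e-10). The gastrocnemius peak took in the TSS of the neighbour Pea15a, 13.091 kb away, in 9 of 10 libraries. In the gene body of Casq1, cortex H3K4me3 was called in 6 of 9 libraries at up to 0.388 RPM per kb. H3K27me3 was not called at the Casq1 TSS in any library.

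Casq2, the calsequestrin of cardiac and slow fibres, went the same way as Casq1. Its H3K4me3 was 4.02 to 7.80 RPM per kb in the gastrocnemius (median 5.40) and 0 to 1.62 in the cortex (median 0, a peak in 3 of 9; log2 fold change 3.77, edgeR, FDR 0.000717, and 4.36 without cortex replicate 1). Its H3K27ac was 1.99 to 3.72 in the gastrocnemius (median 2.89) and listed at 0 in all 9 cortex libraries (edgeR, FDR 2.15e-09). H3K27me3 was called in 9 of 9 cortex libraries (2.86 to 4.86, median 3.90) and in 1 of 10 gastrocnemius libraries, at 1.56 (log2 fold change -4.88, edgeR, FDR 0.00297). The size of this change rests on that library, gastrocnemius replicate 4, without which it was -8.60 and against libraries all at 0. Neither tissue overlapped the other for any of the 3 marks. The cortex H3K27me3 peaks were 3.4 to 35.8 kb wide and reached up to 33.8 kb upstream of the gene. The gastrocnemius holds slow as well as fast fibres, and of 6 slow fibre markers 2 had H3K4me3 in every gastrocnemius library and none was at 0 in all of them, with a summed level of 15.4 to 30.2 RPM per kb. In the cortex Myh7, Tnnt1, Tnni1, Myl2 and Myl3 were at 0 and the sum was 5.4 to 21.8. The part of slow fibres in the Casq2 signal was not tested.

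Pvalb, the calcium buffer of fast fibres and of a class of cortical interneurons, had H3K4me3 at its first start in 10 of 10 gastrocnemius libraries (4.10 to 11.1 RPM per kb, median 6.13) and in 0 of 9 cortex libraries (edgeR, FDR 4.24e-12). H3K27ac was 3.25 to 5.39 in the gastrocnemius (median 3.84) and 0 to 1.93 in the cortex (median 0.652, a peak in 8 of 9), without overlap (log2 fold change 2.49, edgeR, FDR 1.39e-05). H3K27me3 was called in 9 of 9 cortex libraries (1.26 to 7.20, median 5.31) and in 5 of 10 gastrocnemius libraries (0 to 3.72, median 0.894), with overlapping ranges. The test called it higher in the cortex (log2 fold change -1.87, edgeR, FDR 0.0755), but the call was lost with TMM factors (edgeR, FDR 0.143), with DESeq2 size factors (edgeR, FDR 0.166) and with any cortex library but replicate 4 left out (edgeR, FDR up to 0.126). Of the gastrocnemius libraries, 3 of the 4 with a run number and 2 of the other 6 had the peak. Without the run number libraries the log2 fold change was -2.14 (edgeR, FDR 0.177).

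Cortex H3K4me3 at Pvalb lay at the second start, a window looked at after the values of the first had been seen, so that its own values are given without a test. There it was called in 9 of 9 cortex libraries, at 1.89 to 3.78 RPM per kb (median 2.67), and in 10 of 10 gastrocnemius libraries, at 5.54 to 11.1 (median 6.53). H3K27ac in the cortex was 1.63 to 2.49 at the second start (median 1.97) and in the gastrocnemius equal at both, since its peaks covered both windows. In the gastrocnemius 1 H3K4me3 peak of 9.2 to 18 kb ran over both starts in every library, with its count spread evenly, so that the values at the 2 starts are not separate measurements. In the cortex a called H3K4me3 peak reached only the second, which is the one with 23 CpGs in the sequences above. A fit with both starts in 1 window, which includes the second, gave a log2 fold change of 2.36 for H3K4me3 (edgeR, FDR 1.41e-11), 1.53 for H3K27ac (edgeR, FDR 1.10e-09) and -1.59 for H3K27me3 (edgeR, FDR 0.0374). The value for H3K4me3 is far under the 10.4 fitted at the first start, which is against cortex libraries all at 0 and is no bound. Cortex H3K27me3 covered the second start in 9 of 9 libraries as well, at 4.20 to 7.20. In bulk cortex the 3 marks may lie in different cells, which was not tested.

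**Figure D2:**
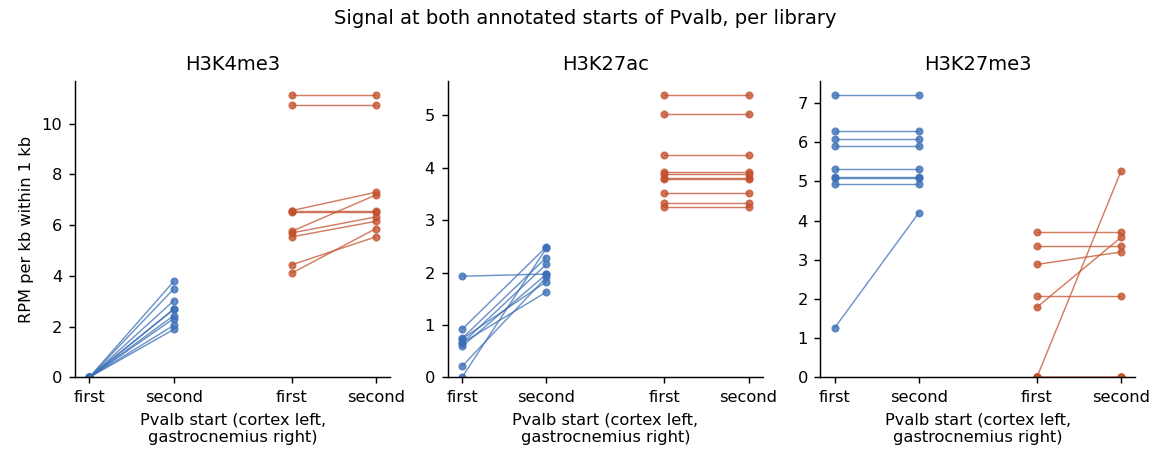
RPM per kb within 1 kb of the first and the second curated start of Pvalb on linear axes, with 1 line per library (cortex blue, left, and gastrocnemius red, right). Cortex H3K4me3 was 0 at the first start in all 9 libraries and 1.89 to 3.78 at the second.

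Jph1, the junctophilin that holds the SR to the surface membrane in muscle, had more H3K4me3 per kb at its TSS in the cortex (21.4 to 36.9, median 25.9) than in the gastrocnemius (7.60 to 16, median 12.7; log2 fold change -1.06, edgeR, FDR 2.86e-07). The order depended on what was counted. The cortex peak was 3.2 to 4.6 kb wide and the gastrocnemius peak 6.8 to 21.4 kb, and epic2 gives 1 count for the whole peak, which is spread evenly here. Counted as whole peaks the means were 108 ± 8.17 (SD, n = 9) RPM in the cortex and 128 ± 41.1 (SD, n = 10) in the gastrocnemius, and the log2 fold change became 0.26 (edgeR, FDR 0.110). For H3K27ac the TSS gave 4.90 to 7.18 in the cortex (median 5.76) and 3.11 to 5.23 in the gastrocnemius (median 3.87), with slight overlap (log2 fold change -0.59, edgeR, FDR 0.000109). The H3K27ac peak was 3.2 to 6.0 kb wide in the cortex and 21.0 to 31.2 kb in the gastrocnemius. Its whole count was 26.5 ± 3.24 (SD, n = 9) RPM in the cortex and 109 ± 24.3 (SD, n = 10) in the gastrocnemius, which reversed the call (log2 fold change 2.04, edgeR, FDR 4.95e-11). The ratios of median widths were 2.0 for H3K4me3 and 6.28 for H3K27ac, larger than in 89.3% and 97.5% of genes with the mark in both tissues. No H3K27me3 peak was called at Jph1.

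Whole counts moved the values of other members as well. At Ryr1 the log2 fold change became 4.59 for H3K4me3 and 5.34 for H3K27ac, at Pvalb 4.10 for H3K27ac, at Ryr2 -6.35 for H3K4me3, at Casq2 4.57 for H3K4me3 and at Ryr3 -2.52 for H3K4me3, each with the call kept. The Pvalb H3K27ac peak took in the TSS of the neighbour Ift27 in 4 of 10 gastrocnemius libraries. For H3K27me3, Ryr2 (2.10, edgeR, FDR 0.0778) and Ryr3 (1.07, edgeR, FDR 0.00507) were then called higher in the gastrocnemius, and Pvalb lost its call (-1.85, edgeR, FDR 0.190).

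Sln, which encodes sarcolipin, a small inhibitor of SERCA pumps, had no peak of any mark at its TSS. The only peaks within its gene were H3K27ac peaks of the cortex, 1 in each of 9 libraries, from 1.95 to 3.15 kb to 5.15 to 5.75 kb downstream of the TSS, so that they ran past the gene's end. They held 3.81 to 11.3 RPM (median 7.04) and were 2.0 to 3.8 kb wide. None of the 10 gastrocnemius libraries had one, and their nearest H3K27ac peak lay 20.3 to 175 kb from the TSS. The nearest H3K4me3 peak lay 20.1 to 20.3 kb away in the cortex.

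**Figure D3:**
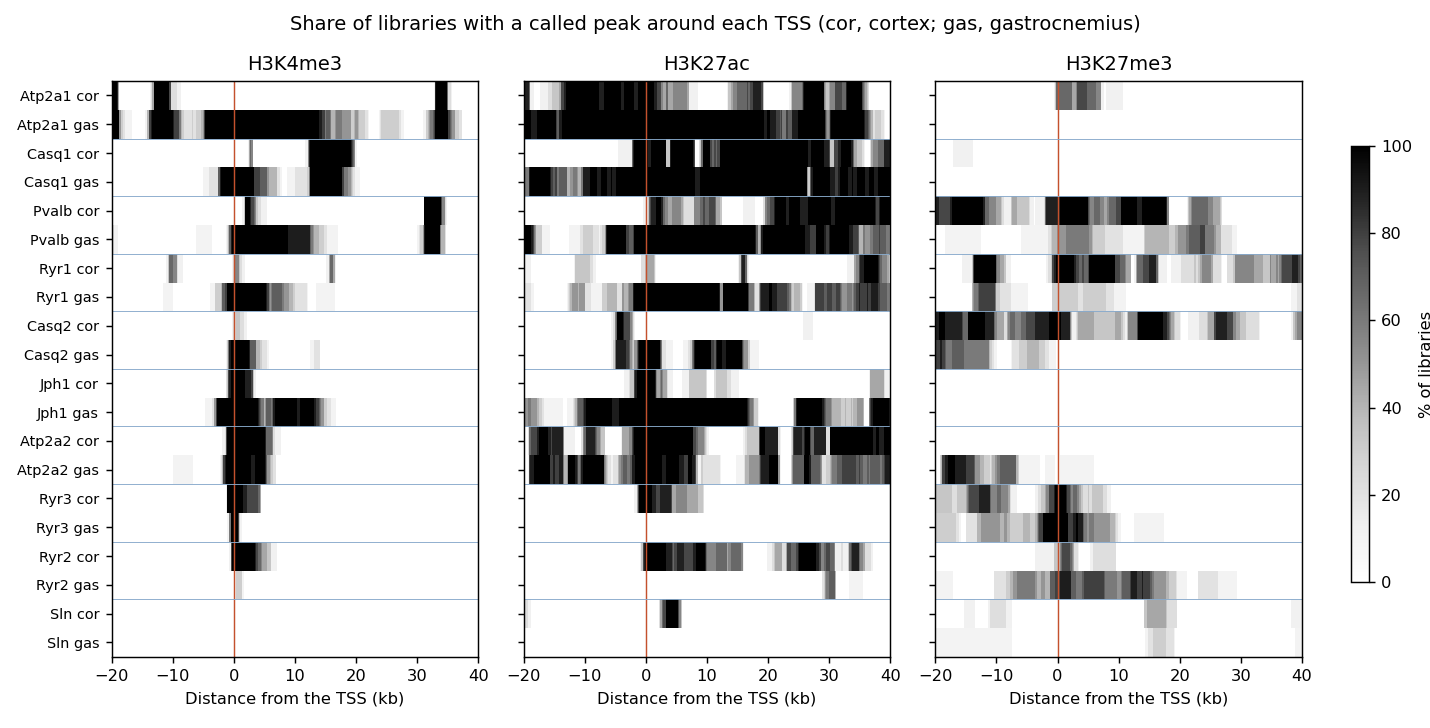
Share of libraries, in percent, with a called peak at each distance from the TSS of each member, from 20 kb upstream to 40 kb downstream, with cortex above gastrocnemius for each gene and the TSS as a red line. Gastrocnemius H3K27ac ran far into Atp2a1, Casq1, Pvalb, Ryr1 and Jph1, and gastrocnemius H3K4me3 far into Atp2a1 and Pvalb. Cortex H3K27me3 lay over Ryr1, Casq2 and Pvalb.

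Gene bodies followed the TSS with a few changes. Since a peak's count is spread evenly, a peak over both windows gives both the same density. Such values are not separate measurements. In the gastrocnemius, H3K27ac covered the whole body of Atp2a1 and Pvalb in every library, with values equal to those at the TSS. H3K4me3 was called higher in the gastrocnemius at 6 of 9 tested members and in the cortex at 3, against 39.8% and 25.2% of 16314 genes, and Jph1 had moved to the muscle side (log2 fold change 0.80, edgeR, FDR 0.00198). H3K27ac was called higher in the gastrocnemius at 6 of 10 and in the cortex at 4, against 34.4% and 36.2% of 17843 genes. The 6 were Ryr1, Atp2a1, Casq1, Casq2, Pvalb and Jph1, and the 4 were Ryr2, Ryr3, Atp2a2 and Sln. Jph1 had 1.43 to 2.79 RPM per kb of body H3K27ac in the gastrocnemius (median 1.94) and 0.0835 to 0.361 in the cortex (median 0.232), without overlap. H3K27me3 was called higher in the gastrocnemius at 2 of 6 (Ryr2 and Ryr3) and in the cortex at 4 (Ryr1, Atp2a1, Casq2 and Pvalb), against 27% and 28.1% of 10172 genes. Ryr3 body H3K27me3 was 0.0986 to 0.519 in the gastrocnemius (median 0.193) and 0.0132 to 0.201 in the cortex (median 0.0351), and these ranges overlapped (log2 fold change 1.85, edgeR, FDR 0.00504). The Pvalb body call was lost with TMM factors (edgeR, FDR 0.107) and with DESeq2 size factors (edgeR, FDR 0.123).

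Presence of peaks gave a stricter reading. For H3K4me3, 3 members (Atp2a1, Casq1 and Pvalb) had a TSS peak in every gastrocnemius library and in no cortex library, against 1.85% of genes tested, and 0 the reverse, against 3.06%. For H3K27ac, Casq2 was the 1 member with peaks in every gastrocnemius library only (1.64% of genes), and Ryr2 and Ryr3 were the 2 with peaks in every cortex library only (4.42%). For H3K27me3 no member was of either kind, against 3.48% and 2.22% of genes. H3K27me3 was called at the TSS of Casq1, Sln and Jph1 in no library.

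The libraries without a run number in their deposited names, 7 of the cortex and 6 of the gastrocnemius, gave the same counts at the TSS for H3K4me3 (5 and 4) and H3K27ac (5 and 4), and for H3K27me3 1 in the gastrocnemius and 3 in the cortex. The 2 cortex and 4 gastrocnemius libraries with a run number gave 3 and 2, 3 and 0, and 0 and 0, and there a gene marked in the cortex alone could not reach 3 libraries and was not tested. The shares of all genes called in either set are not given here, so these counts cannot be read as particular to the members.

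Paralogs of fast or skeletal muscle and of slow muscle or neurons were then compared within each library. The measure was the difference in log2(RPM per kb + 1) at the TSS, so that both genes share the library's depth. The 12 differences (4 pairs, 3 marks) were tested between the tissues by an exact permutation test, two-sided, over all relabellings of the 19 libraries, where the smallest p possible is 1.08e-05. Adjusted over the 12 by Benjamini-Hochberg, the p-values of 1.08e-05 became 1.62e-05, those of 2.17e-05 became 2.60e-05, and the others 0.000307 and 0.00238. For H3K4me3, Atp2a1 minus Atp2a2 was -4.59 to -4.12 in the cortex and -0.91 to 0.77 in the gastrocnemius, a shift of 4.06 (exact permutation p = 1.08e-05). Atp2a1 was at 0 in every cortex library, so that the cortex side is the Atp2a2 value with its sign turned, and the size rests on the pseudocount, at 5.99 with 0.25 and 2.32 with 4 RPM per kb. The other shifts also moved with the pseudocount, and the 12 kept their direction and call with both. In muscle the density at the fast pump came up to that at the general one and passed it in 2 of 10 libraries. The order depends on what is counted, since the Atp2a1 peaks were 18.6 to 25.4 kb wide and those of Atp2a2 4.6 to 8.6 kb, and as whole peaks they held 143 to 369 RPM against 71.7 to 107 RPM at Atp2a2, without overlap. Casq1 minus Casq2 shifted by 1.49, Ryr1 minus Ryr2 by 5.78 and Ryr1 minus Ryr3 by 3.39 (each exact permutation p = 1.08e-05), and in none of the 4 did the tissues overlap. Casq1 too was at 0 in every cortex library and Casq2 in 6 of 9, so that the cortex side of that pair is the Casq2 value with its sign turned, and is 0 in 6. With whole counts of the overlapping peaks the 4 shifts were larger, at 7.42, 2.41, 9.39 and 6.57 in the same order.

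For H3K27ac the shifts were 1.18 for the pumps, 3.95 for Ryr1 minus Ryr2 and 4.10 for Ryr1 minus Ryr3, each at an exact permutation p of 1.08e-05 and without overlap. Ryr2 and Ryr3 were at 0 in all 10 gastrocnemius libraries, where both pairs give the value of Ryr1 alone and are not separate results. By density, Casq1 minus Casq2 went against the other 3, from 1.96 to 2.3 in the cortex to 0.37 to 1.04 in the gastrocnemius, a shift of -1.42 (exact permutation p = 1.08e-05). Casq2 was at 0 in every cortex library. With whole counts of the overlapping peaks this shift was 0.14 (exact permutation p = 0.536), while the other 3 grew to 3.30 (pumps), 8.97 (Ryr1 minus Ryr2) and 8.35 (Ryr1 minus Ryr3). For H3K27me3 the shifts were -1.22 for Atp2a1 minus Atp2a2 (exact permutation p = 0.00238; -0.64 and p = 0.0542 without the lowest-scoring 25% of peaks), 2.18 for Casq1 minus Casq2 (exact permutation p = 2.17e-05), -2.77 for Ryr1 minus Ryr2 (exact permutation p = 2.17e-05) and -2.16 for Ryr1 minus Ryr3 (exact permutation p = 0.000281). The tissues overlapped for the first and the last of these. Within the libraries with a run number, where no shift could pass, Ryr1 minus Ryr2 shifted by -1.98 and Ryr1 minus Ryr3 by -1.0. Casq1 had no H3K27me3 peak in any library, so that its pair gives the Casq2 value with its sign turned and repeats the Casq2 result. The pump pair likewise repeats the Atp2a1 result, since Atp2a2 had a peak in 1 gastrocnemius library only and 9 of 10 gastrocnemius differences were 0. With whole counts the H3K27me3 shifts were -2.47, 3.98, -5.15 and -4.41 in the order given, with the calls kept.

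**Figure D4:**
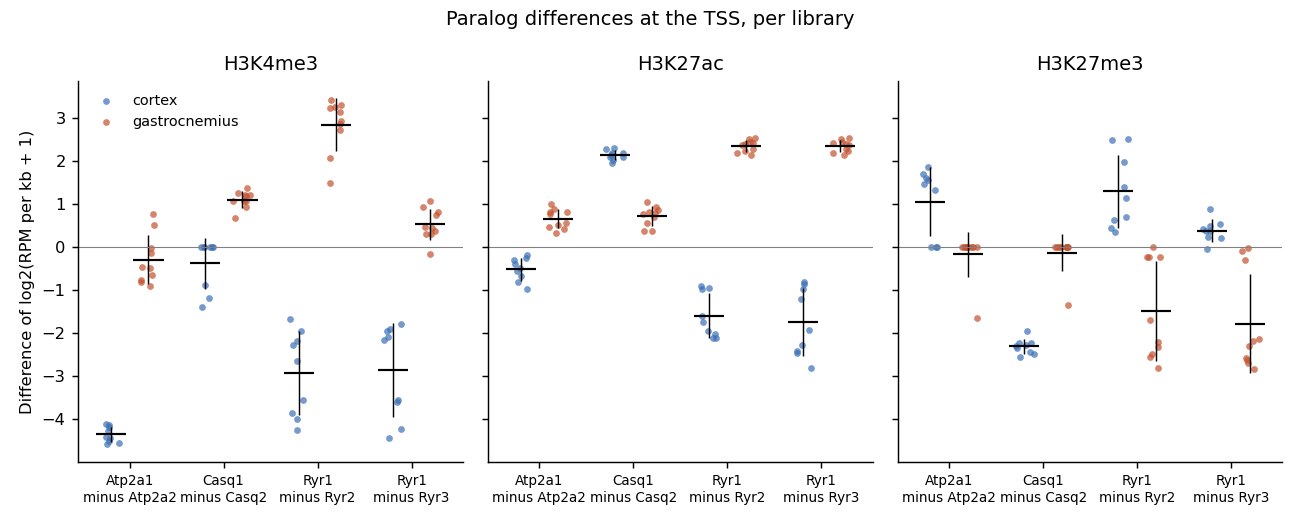
Difference between paralogs in log2(RPM per kb + 1) at the TSS, with 1 point per library (cortex blue, gastrocnemius red), the mean ± SD as black bars and 0 as a grey line. For H3K4me3 all 4 pairs lay higher in the gastrocnemius, and for H3K27ac Casq1 minus Casq2 lay lower there, by 1.42 on average, a difference that whole peak counts did not give (0.14).

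Of 48 further calcium handling genes, named for release, storage, pumping, exchange, entry, buffering and mitochondrial uptake, H3K4me3 at the TSS was higher in the gastrocnemius at 16 and in the cortex at 24 of 46 tested, beside 16% and 59.1% of all genes. H3K27ac was higher in the gastrocnemius at 13 and in the cortex at 24 of 47, beside 12.8% and 49.8%, and H3K27me3 at 5 and 3 of 18, beside 23% and 19.9%. The cortex counts of the activity marks were near the shares of all genes. These splits moved with the scaling, to 20 and 14 for H3K4me3 (29.6% and 29.4% of all genes) and 18 and 15 for H3K27ac (26% and 30.4%) with DESeq2 size factors. The median differences in log2(RPM per kb + 1) were -0.28, -0.23 and -0.27, beside -0.33, -0.26 and -0.09 over all genes tested. By role, H3K4me3 was higher in the gastrocnemius at 8 of 14 release and coupling genes and in the cortex at 4 (9 and 3 with DESeq2 size factors). For H3K27ac these counts were 6 and 7 (7 and 3 with DESeq2 size factors). H3K4me3 was higher in the cortex at 3 of 3 exchangers with every scaling, and at 4 of 5 genes of store-operated entry, which became 1 with DESeq2 size factors.

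Of the junctophilins, Jph2 and Jph3 had H3K4me3 and H3K27ac mainly in 1 tissue each, Jph2 in the gastrocnemius and Jph3 in the cortex. Jph2, the junctophilin of muscle and heart, had 11.6 to 19 RPM per kb of H3K4me3 in the gastrocnemius and none called in the cortex (edgeR, FDR 1.94e-15), while its H3K27me3 was 4.14 to 8.03 in the cortex and listed at 0 in the gastrocnemius (edgeR, FDR 2.41e-06). Jph3 and Jph4, the neuronal junctophilins, had more H3K4me3 in the cortex, at 14.9 to 21.8 and 12.4 to 19.8 in the cortex against 0 to 1.95 and 2.74 to 5.62 in the gastrocnemius (edgeR, FDR 1.12e-06 and 2.12e-12). H3K27me3 was higher in the gastrocnemius at Jph4 (log2 fold change 3.15, edgeR, FDR 0.0199) and at Jph3 (log2 fold change 0.48, edgeR, FDR 0.0514). Jph1 and Jph4 had H3K4me3 and H3K27ac in every library of both tissues, while H3K27me3 was called at Jph4 in 10 gastrocnemius and 2 cortex libraries and at Jph1 in none.

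The list genes named for the largest differences toward the gastrocnemius, and named counterparts of members, gave the following values, and do not stand for their roles: of the 14 release and coupling genes, H3K4me3 was called higher in the gastrocnemius at 8 and in the cortex at 4. H3K4me3 was called in 10 of 10 gastrocnemius and 0 of 9 cortex libraries at Stac3, a coupling protein of the calcium channel (7.34 to 10.5 RPM per kb), at Srl, a storage protein of the SR (5.87 to 12.5), and at Trdn, which anchors calsequestrin to Ryr1 (5.80 to 10.5). For H3K27ac, Trdn (2.79 to 4.70) and the channel subunit gene Cacng1 (2.81 to 4.59) were called in 10 gastrocnemius libraries and none of the cortex, and Jph2 was 4.29 to 6.65 against 0 to 1.5. Cacna1s, the voltage sensor that opens Ryr1, had 7.42 to 11.5 of H3K4me3 in the gastrocnemius and 0 to 0.693 in the cortex (edgeR, FDR 8.80e-08). Its H3K27ac overlapped between the tissues (3.29 to 5.86 and 2.35 to 4.85) and was called in all 19 libraries, as it was at Casq1 and Atp2a1. Pln, the inhibitor of Atp2a2, had 1.25 to 2.23 of H3K4me3 in the gastrocnemius and none called in the cortex (edgeR, FDR 1.88e-07).

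The genes named for the largest differences toward the cortex were chosen for them, and do not stand for the other list genes called there. Atp2b2, a plasma membrane calcium pump, had 9.63 to 13.0 of H3K4me3 and 3.54 to 6.73 of H3K27ac in the cortex and no peak of either in the gastrocnemius. Calb1, a calcium buffer of neurons, had 9.0 to 11.8 of H3K4me3 in the cortex and none called in the gastrocnemius (edgeR, FDR 1.13e-15). The exchanger gene Slc8a1 had 1.23 to 3.74 of H3K27ac in the cortex and none called in the gastrocnemius, and Jph3 had 3.48 to 5.70. Itpr1, the IP3 receptor of neurons and many other cells, differed little, at 19.3 to 27.1 of H3K4me3 in the cortex and 11.9 to 21.2 in the gastrocnemius with overlap (log2 fold change -0.46, edgeR, FDR 0.000394), and that call was lost with DESeq2 size factors (edgeR, FDR 0.162).

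**Figure D5:**
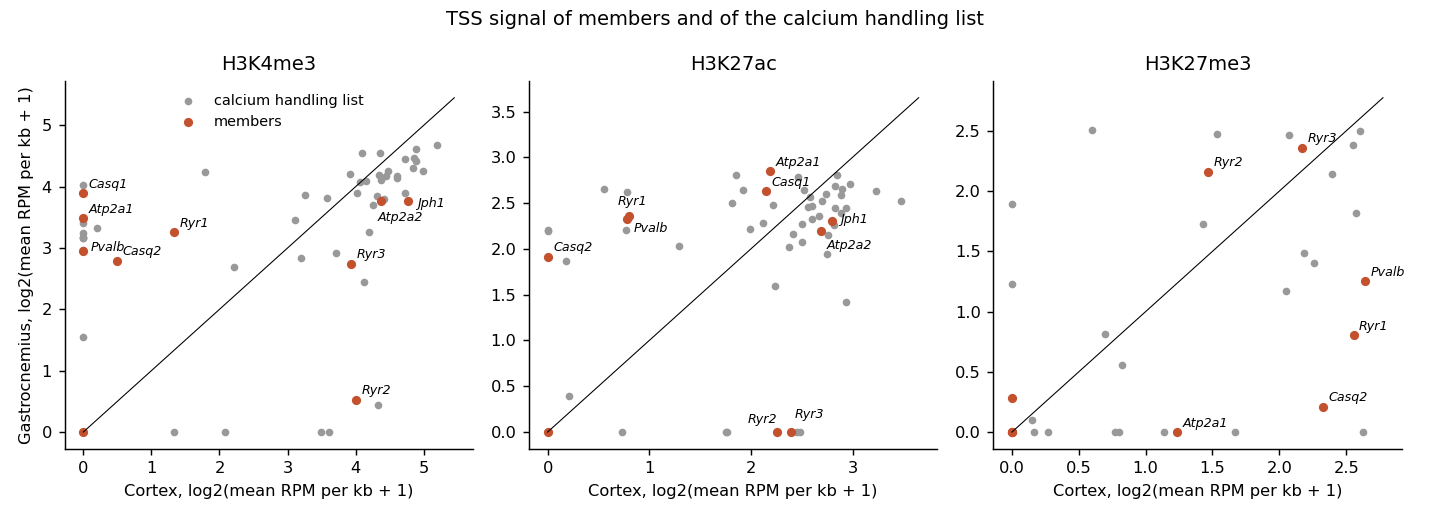
Mean TSS signal in the cortex (x axis) and the gastrocnemius (y axis), as log2(mean RPM per kb + 1), for the 10 members (red) and the 48 further calcium handling genes (grey), with the line of equal values. For H3K4me3, Atp2a1, Casq1 and Pvalb stand at 0 on the cortex axis, and Ryr2 lies near 0 on the gastrocnemius axis.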

How the data were processed

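H3K4me3, H3K27ac and H3K27me3 ChIP-seq was measured in cortex and gastrocnemius of PSAPP mice. Per the study's methods, the authors used bwa with the mm10 genome, kept well mapped, unduplicated reads of chromosomes 1 to 19 and X by SAMtools filters, and ran epic2 on each library (fragment and window of 200, gap of 2, or 3 for H3K27me3, FDR under 0.05, e of 100). The epic2 version and any input control are not given in the sources used here. Each deposited peak carries a count, the reads that the authors' caller found in it without normalization. The deposited epic2 score was used only to leave out the lowest 25% of peaks as an alternative.

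Peak counts were shared by overlap among windows of 1 kb either side of the RefSeq TSS and gene bodies (from 1 kb downstream of the TSS to the gene end), so reads outside called peaks were not seen, and a wide peak lowers the density at its TSS. Shared counts were rounded to whole numbers and tested with edgeR 4.0.16 (quasi-likelihood, robust, library size the reads in autosomal peaks, 3.90 to 27 M reads for H3K27ac, genes with a peak in at least 3 libraries of a tissue, Benjamini-Hochberg FDR under 0.1) in R 4.3.3 with limma 3.58.1 and DESeq2 1.42.0 as alternatives. Python 3.11.15, NumPy 2.4.6, pandas 2.3.3 and matplotlib 3.10.9 were used for the rest. Scripts were tested on simulated data. All 10 members are named, and of the calcium handling list the 3 genes with the largest called difference without overlap in each direction per mark, plus Pln, Cacna1s, Jph2, Jph3, Jph4, Trdn, Itpr1 and Calb1. The members and lists were chosen with earlier results of these data known. Sex is not given for the libraries by the labels and was not modelled. Mouse numbers in the deposited file names pair 9 mice, and deviations of same-mouse libraries correlated at -0.0864 to 0.0542 (H3K4me3), -0.0686 to 0.0793 (H3K27ac) and 0.0429 to 0.128 (H3K27me3). No pair of libraries was identical.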

Additional observations from a re-analysis of the deposited data

Results flagged for a closer look

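Of 90 groups of member values (a member, mark, window and tissue), 13 had a library far from the others by Dixon's criterion. Its chance rate of about 5 percent holds for independent groups of normal values. Some groups were 0 in all libraries but 1, which the criterion always flags, and TSS and body groups share peaks. The 13 are thus not read as an excess. At the TSS, H3K4me3 at Jph1 was 36.9 RPM per kb in cortex replicate 4 (next 28.1), and at Ryr1 13.3 in gastrocnemius replicate 7 (next 9.63). H3K27ac at Pvalb was 1.93 in cortex replicate 3 (next 0.915), and at Casq1 7.12 in gastrocnemius replicate 8 (next 5.78). H3K27me3 at Pvalb was 1.26 in cortex replicate 4, below the next value of 4.94. H3K27me3 was called in a single gastrocnemius library at Atp2a2 (replicate 6, 2.16) and at Casq2 (replicate 4, 1.56), with 0 in the other 9.

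In gene bodies, H3K4me3 in the gastrocnemius was 0.0033 at Ryr2 in replicate 9 (next 0.00089) and 0.00574 at Ryr3 in replicate 7 (next 0.00252). H3K27ac was 2.90 at Atp2a2 in cortex replicate 9 (next 2.49) and 0.0171 at Ryr2 in gastrocnemius replicate 2 (next 0.00689). H3K27me3 in the gastrocnemius was 0.279 at Atp2a2 in replicate 6 (next 0) and 0.429 at Casq2 in replicate 3 (next 0.199).

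All 12 paralog differences in density differed between the tissues by the exact permutation test. The call was lost for the calsequestrins and H3K27ac with whole peak counts (0.14, exact permutation p = 0.536), for the pumps and H3K27me3 without the lowest-scoring 25% of peaks (-0.64, exact permutation p = 0.0542), and for all 12 within the libraries with a run number, where none could pass. The shifts in log2(RPM per kb + 1), gastrocnemius minus cortex, for Atp2a1 minus Atp2a2 were 4.06 (H3K4me3), 1.18 (H3K27ac) and -1.22 (H3K27me3). For Casq1 minus Casq2 they were 1.49, -1.42 and 2.18, for Ryr1 minus Ryr2 5.78, 3.95 and -2.77, and for Ryr1 minus Ryr3 3.39, 4.10 and -2.16. By density, though not by whole peak counts, the calsequestrins had for H3K27ac the sign opposite to that of the other 3 pairs, and for H3K27me3 their value is that of Casq2 alone, since Casq1 had no peak. The H3K27me3 value of the pumps is that of Atp2a1 but for 1 library.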

How the results depend on the processing

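Within the 2 cortex and 4 gastrocnemius libraries with a run number no paralog shift could pass, since the smallest exact permutation p there is 0.0667. The H3K4me3 shifts were 3.82, 1.62, 5.81 and 3.47 (pumps, calsequestrins, Ryr1 minus Ryr2, Ryr1 minus Ryr3), those of H3K27ac 1.31, -1.47, 4.20 and 4.46, and those of H3K27me3 -1.20 (exact permutation p = 0.533), 2.39, -1.98 and -1.0 (exact permutation p = 0.333). Members called there at the TSS, gastrocnemius and cortex, were 3 and 2 (H3K4me3), 3 and 0 (H3K27ac) and 0 in the cortex (H3K27me3), and in the gene body 1 in the cortex for H3K4me3, 1 for H3K27ac and 0 for H3K27me3. The gastrocnemius gene body counts did not move. The shares of all genes called within these libraries are not given, so the counts are not read as particular to the members. There Ryr3 H3K27me3 was -0.26 (edgeR, FDR 0.618). The cause was not tested, but fewer samples and genes could pass.

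The H3K27ac shift of Casq1 minus Casq2 was 0.14 with whole peak counts (exact permutation p = 0.536), and the H3K27me3 shift of the pumps -0.64 without the lowest-scoring 25% of peaks (exact permutation p = 0.0542). Jph1 turned to the gastrocnemius with whole peak counts (H3K4me3 0.26, edgeR, FDR 0.110, not called; H3K27ac 2.04) and with covered bp (H3K4me3 0.10). Covered bp has a ceiling at the whole window, reached for both activity marks at Atp2a2 in every library and at Jph1 in the gastrocnemius (93.7% on average in the cortex for H3K4me3). For H3K27ac it was also reached at Atp2a1 in every library and at Casq1 in the gastrocnemius (96.7% on average in the cortex). Nothing is read from covered bp for these genes and marks. The H3K27ac calls lost with it were those of Atp2a1, Casq1, Atp2a2 and Jph1. With covered bp, cortex calls were 2 for H3K4me3, and for H3K27ac calls were 3 and 2, the numbers also given by asking for 2-fold. H3K27me3 at the TSS was called higher in the gastrocnemius at 1 member with DESeq2 size factors, with limma, with a peak in at least 1 library, with 2.5 kb and in libraries without a run number, and at 2 with whole counts. Higher in the cortex it was called at 2 with FDR under 0.01 (2 in the gene body too) and at 2 with DESeq2 size factors. The causes were not tested.

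With the mouse or the title number as a replicate block, the members called at the TSS were 5 and 4, 5 and 4, and 0 and 4, and the pairing changed no member call in 49 of 49 fits of either block nor any of 12 sign-flip tests over mice (smallest p 0.00391).

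With each library left out, counts stayed at 5 and 4 (H3K4me3, H3K27ac), at 0 for gastrocnemius H3K27me3 and at 3 to 4 for cortex H3K27me3. The called direction and side held for all 342 left-out values of counts and shifts. Pvalb H3K27me3 lost its call in 8 of 19, with log2 fold changes from -1.89 to -1.81 there and from -2.16 to -1.71 over all 19. Under a rule that a peak cover 50% of the window, libraries with a peak fell to 1 for gastrocnemius H3K4me3 at Ryr2, 1 for cortex H3K27ac at Pvalb, 3 for cortex H3K27me3 at Ryr2 and 0 for gastrocnemius H3K27me3 at Casq2. They fell by 1 library, to 4 at Ryr1 and 2 at Casq2 for cortex H3K4me3 and to 8 for H3K27me3 at Pvalb in the cortex and at Ryr2 in the gastrocnemius, and the other counts were unchanged. The lowest density of a called peak in a library ranged from 1.19 to 3.16 RPM per kb for gastrocnemius H3K27me3 (2.99 to 18.2 M reads), 0.845 to 1.10 for gastrocnemius H3K27ac and 1.11 to 1.48 for gastrocnemius H3K4me3, so a value of 0 does not show that a mark is absent.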
